A study of Mus musculus with 2 samples.

Results

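Cycling liver nuclei were defined here as nuclei with at least 300 detected genes in which *Top2a*, *Mki67*, *Cenpf*, *Prc1*, *Kif11*, *Kif15* and *Knl1* together gave at least 5 UMIs, a UMI being 1 captured RNA molecule. They were found in 2 snRNA-seq libraries of sorted liver nuclei, 1 per genotype, and numbered 247 of 20081 nuclei. The Flox-labelled library held 77 among 9360 nuclei and that labelled HKO held 170 among 10721. All mice were male C57BL6/J on the AMYLIN liver NASH diet for 5 months, started at an age of 10 to 12 weeks, with 40 kcal% from fat, 20 kcal% from fructose and 2% cholesterol, so that both groups had diet-induced MASH, the inflamed and scarred form of fatty liver disease. The Flox genotype was *Themis* flox/flox, and the title of that library also carries the name WT. The HKO genotype was *Themis* Alb-Cre, in which the albumin promoter drives Cre in hepatocytes. Each library pooled liver of several mice, so that neither the spread between animals nor a test between genotypes was available, and fewer cells of a type or a different yield of their nuclei cannot be told apart. The intervals given are 95% intervals and cover counting error only, with the spread between nuclei and between mice left out. Where 2 values are paired, Flox comes first, and both names stand for the labels of the libraries.

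Dividing cells copy their DNA in S phase, check and condense it in G2, and pull the copies apart in mitosis. Genes for replication are switched on by E2F factors before S phase, and many genes for mitosis are switched on later through promoters that carry the CHR element, with the letters TTTGAA, and CCAAT boxes. Hepatocytes of the adult liver seldom divide but re-enter the cycle after loss of tissue, and often end it with a second nucleus or more copies of the genome. Kupffer cells, the resident macrophages of the liver, can renew themselves by division, while sinusoidal endothelial cells and stellate cells, which store vitamin A and turn into matrix-producing cells, divide during injury.

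The sequence around 1 TTTGAA of each of the 7 genes that chose the nuclei is shown, since it is the motif these genes have in common. The windows are RefSeq sequence of build GRCm38.p6, were chosen after the values had been seen, and carry TTTGAA in capitals, or TTCAAA where the motif lies on the other strand.
Top2a (chr11:99024195-99024224, minus strand): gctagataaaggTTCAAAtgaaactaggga
Mki67 (chr7:135716460-135716489, minus strand): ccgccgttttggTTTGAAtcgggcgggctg
Cenpf (chr1:189688067-189688096, minus strand): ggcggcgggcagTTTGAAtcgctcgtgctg
Prc1 (chr7:80294434-80294463, plus strand): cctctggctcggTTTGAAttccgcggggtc
Kif11 (chr19:37376351-37376380, plus strand): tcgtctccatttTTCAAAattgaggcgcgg
Kif15 (chr9:122951050-122951079, plus strand): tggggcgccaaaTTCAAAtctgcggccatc
Knl1 (chr2:119047138-119047167, plus strand): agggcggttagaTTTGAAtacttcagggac
The motif lay 23 bases before the start of *Top2a*, 98 before that of *Mki67*, 5 before that of *Prc1*, and 19 before those of *Kif11* and *Kif15*. In *Cenpf* and *Knl1* it lay 2 and 31 bases after the start. All 7 held TTTGAA on either strand in the 300 bases from 250 before to 50 after the start, and 5 of them (71.4%) also held CCAAT. Among the 27025 promoters of the same length, 18.1% held TTTGAA, 37.9% held CCAAT and 7.12% held both. Among the 6114 of them whose genes were measured in both libraries the shares were 12.3%, 38.9% and 5.22%. A match of letters is a description and not a bound site.

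The values that chose the nuclei are given as a description. *Top2a*, the enzyme that untangles replicated DNA, gave 351 UMIs in the 77 cycling nuclei labelled Flox, or 742 CPM (667 to 824), where CPM stands for counts of the gene scaled to a fixed total of UMIs over the summed nuclei. It gave 723 UMIs, or 967 CPM (898 to 1040), in the 170 labelled HKO. *Mki67*, which coats mitotic chromosomes and is the usual stain for proliferation, stood at 778 CPM (701 to 862) and 807 CPM (744 to 874). *Cenpf*, a kinetochore protein of G2 and mitosis, stood at 571 CPM (505 to 643) and 412 CPM (367 to 461). Since these genes chose the nuclei, no difference between the libraries is read from their levels. *Knl1*, the scaffold of the outer kinetochore, lay at 359 CPM (307 to 418) and 478 CPM (429 to 530). *Prc1*, which bundles microtubules of the central spindle, lay at 421 and 424 CPM, and the mitotic motors *Kif11* and *Kif15* at 247 and 284 CPM and at 362 and 364 CPM. In all other nuclei the 7 genes ranged from 0.312 to 2.89 CPM in the Flox-labelled library and from 1.08 to 5.49 CPM in the HKO-labelled library.

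Most cycling nuclei held several of the 7 genes together. *Top2a* had a UMI in 66 of 77 and 147 of 170 cycling nuclei, and in 1.44% and 1.74% of the others. Median depths were 3872 and 2655 UMIs in cycling nuclei and 6230 and 2217 UMIs in the others, and those others include nuclei with 3 or 4 UMIs of the 7 genes, so that the share in them is not a measure of free RNA alone. At least 5 of the 7 genes were detected in 52 and 101 cycling nuclei, and all 7 in 24 and 36. The summed count ran from 5 to 61 with a median of 22 in the Flox-labelled library, and from 5 to 69 with a median of 13 in the HKO-labelled library. Of the other nuclei, 95.5% and 95.1% held none of these UMIs. Among cycling nuclei classed below as hepatocyte-like, each of the 7 genes had a UMI in 2 to 12 of 16 and 17 to 32 of 41. Among all cycling nuclei it was 50 to 66 of 77 and 94 to 153 of 170. The 2 nuclei with a single gene detected were hepatocyte-like, and another such nucleus labelled Flox held 28 UMIs from 2 of the genes.

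Over all lineages, counts of 121 other core genes of S phase, G2/M, kinetochore, spindle and condensin were higher in nuclei rich in the 7 than in those without them. The rise between was not steady in the Flox-labelled library. In nuclei without a UMI of the 7 genes these 121 had a median of 21.1 and 19.2 UMIs per 10000. The 15 and 27 nuclei with 3 UMIs had medians of 84.4 and 41.4 per 10000. Just outside the threshold, the 11 and 15 nuclei with 4 UMIs had medians of 59.2 and 79.4 per 10000. Just inside it, the 4 and 16 nuclei with 5 UMIs had 53.3 and 109.9 per 10000, and the 43 and 50 nuclei with 20 or more had 240.9 and 254.6. The nuclei on both sides of the threshold thus lay between the nuclei without the 7 genes and those rich in them. Among hepatocyte-like nuclei the rise was not steady in either library. In the Flox-labelled library their median was 105 per 10000 with 6 to 9 UMIs, 112 with 10 to 19 and 67.2 in the 3 nuclei with 20 or more. In the HKO-labelled library it was 50.5 with 4 UMIs, 58.8 with 5, 46.9 with 6 to 9, 149 with 10 to 19 and 208 with 20 or more. In 3 of 77 and 2 of 170 cycling nuclei the 121 genes were no higher than the median of nuclei without the 7, and 3 and 1 of these were hepatocyte-like.

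Cycling nuclei made up 0.823% (0.650 to 1.03) of nuclei in the Flox-labelled library and 1.59% (1.36 to 1.84) in the HKO-labelled library, a ratio of 1.93 (1.46 to 2.56). With every nucleus thinned to 1000 UMIs and at least 2 UMIs of the 7 genes required, the shares were 0.868% of 8986 and 1.79% of 8788 nuclei, a ratio of 2.06 (1.56 to 2.74), and 374 and 1933 shallower nuclei were left out. Scrublet marked 5 (6.49%) and 37 (21.8%) of the cycling nuclei as doublets, against 7.49% and 8.58% of all nuclei, and without marked nuclei the ratio was 1.63. Of the barcodes, 27 occurred in both libraries, and none of these was a cycling nucleus. *Themis*, the gene named in the genotypes, was not lower in the HKO-labelled library, where other hepatocyte-like nuclei held 252 CPM against 159 CPM in the Flox-labelled library. Counts from the 3′ end do not tell whether a deleted exon is present, so that HKO and Flox name the libraries by label and no direction is tied to a loss of *Themis*.

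Lineages were read from marker lists that held none of the 7 genes, and each name stands for a resemblance. Of the cycling nuclei labelled Flox, 20 (26.0%, 16.6 to 37.2) were macrophage-like, 16 (20.8%, 12.4 to 31.5) hepatocyte-like, 9 (11.7%, 5.49 to 21.0) endothelial-like and 7 (9.09%, 3.73 to 17.8) stellate-like. Of those labelled HKO, 50 (29.4%, 22.7 to 36.9) were macrophage-like, 41 (24.1%, 17.9 to 31.3) hepatocyte-like, 32 (18.8%, 13.2 to 25.5) endothelial-like and 8 (4.71%, 2.05 to 9.06) stellate-like. The order of these 4 lineages was the same in both libraries, although the intervals of neighbours in that order overlapped, except for endothelial-like and stellate-like nuclei labelled HKO. The place of hepatocyte-like nuclei in it moved with the method. With lineages from the best fitting profile, which also places mixed nuclei, hepatocyte-like against macrophage-like nuclei stood at 32.5% and 28.6% in the Flox-labelled library and at 32.4% each in the HKO-labelled library. With at least 10 UMIs of the 7 genes, hepatocyte-like nuclei fell below endothelial-like ones, at 12.5% against 16.1% and 18.5% against 21.8%, and at 1000 UMIs per nucleus at 12.8% against 15.4% and 14.6% against 21.7%. T or NK-like nuclei numbered 4 and 3, dendritic-like 4 and 2, and cholangiocyte-like 2 and 4, while plasma-like nuclei numbered 0 and 3. B-like, neutrophil-like and mesothelial-like nuclei were not among them. The other cycling nuclei held markers of more than 1 lineage (14 and 15) or of none (1 and 12). A fit of each nucleus to the summed profile of other nuclei gave the same lineage for 201 of the 205 named nuclei.

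The genes named next are among the markers that assigned the lineages, so their presence follows in part from that choice. Among dendritic-like cycling nuclei, *Flt3* had 15 and 2 UMIs and *Siglech* had 0 in either library. *Reln*, the marker of stellate cells, stood at 796 and 1859 CPM in stellate-like cycling nuclei. The 10 stellate markers together stood at 7518 against 17912 CPM in other stellate-like nuclei labelled Flox, and at 9915 against 12525 CPM labelled HKO. *Ptprb*, a phosphatase of endothelial cells, stood at 2361 and 1647 CPM in endothelial-like ones. In macrophage-like cycling nuclei, *Clec4f*, the lectin of Kupffer cells, stood at 1224 and 644 CPM and *Ms4a7*, a membrane protein of macrophages, at 162 and 114 CPM. *Pkhd1*, the fibrocystin of bile duct cilia, stood at 298.5 CPM from 1 UMI and 1581 CPM from 17 UMIs in cholangiocyte-like cycling nuclei. *Bcl11b*, a transcription factor of T cells, stood at 178 CPM from 2 UMIs and 635 CPM from 3 UMIs in T or NK-like ones. *Jchain*, the joining chain of antibodies, stood at 18024 CPM in the 3 plasma-like nuclei. Some of the 8 stellate-like nuclei labelled HKO also held markers of another lineage. Scrublet marked 5 of them as doublets. The 8 summed to 998 CPM of the 10 macrophage genes, against 89.2 CPM in other stellate-like nuclei. Their median was 1.65 UMIs per 10000 of the macrophage and Kupffer markers together, and 1 of the 8 fitted the macrophage profile best.

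**Figure D1:**
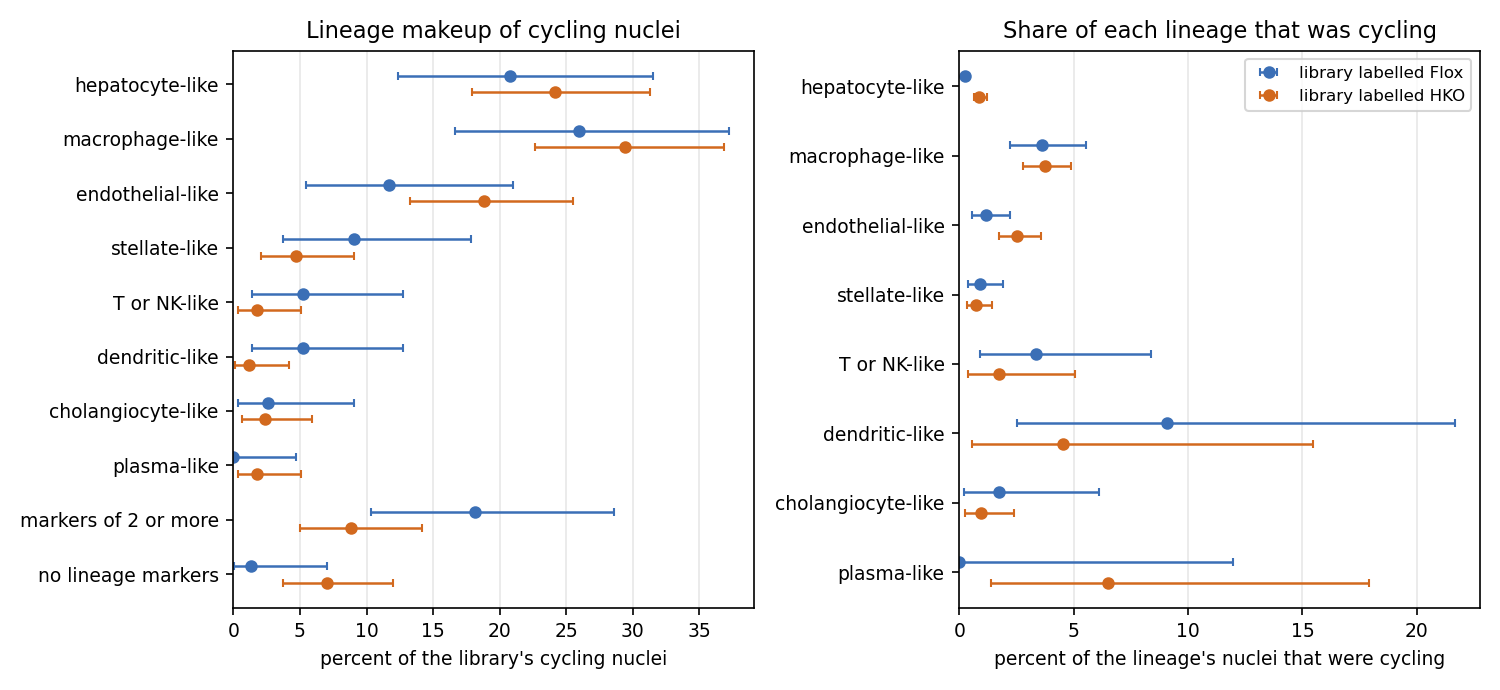
Percent of cycling nuclei in each lineage (left) and percent of each lineage that was cycling (right), in the libraries labelled Flox and HKO, with exact 95% binomial intervals as bars. With lineages from the marker lists, macrophage-like nuclei led the makeup with 26.0% and 29.4%, while hepatocyte-like nuclei had the lowest shares cycling among the 4 main lineages in the Flox-labelled library (0.260%).

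The share of a lineage that was cycling differed widely between lineages. Among macrophage-like nuclei it was 3.61% (2.22 to 5.52) of 554 in the Flox-labelled library and 3.74% (2.79 to 4.90) of 1336 in the HKO-labelled library, a ratio of 1.04 (0.606 to 1.84), so that no difference was detectable at this depth. Among hepatocyte-like nuclei it was 0.260% (0.149 to 0.422) of 6154 and 0.880% (0.632 to 1.19) of 4661, a ratio of 3.38 (1.86 to 6.46). Scrublet marked 0 of the 16 and 10 of the 41 cycling hepatocyte-like nuclei, and without marked nuclei the ratio was 2.59 (1.37 to 5.07). Among endothelial-like nuclei it was 1.18% (0.543 to 2.24) of 760 and 2.54% (1.74 to 3.57) of 1259, a ratio of 2.15 (1.0 to 5.11), whose lower bound was 0.933 without marked nuclei, 0.792 with at least 10 UMIs of the 7 genes and 0.934 with the best fitting profile. Among stellate-like nuclei it was 0.925% (0.373 to 1.90) of 757 and 0.728% (0.315 to 1.43) of 1099. Without marked nuclei the stellate-like ratio fell from 0.787 (0.249 to 2.55) to 0.353. T or NK-like nuclei cycled in 4 of 119 and 3 of 171, dendritic-like in 4 of 44 and 2 of 44, cholangiocyte-like in 2 of 116 and 4 of 428, and plasma-like in 0 of 29, where a count of 0 allows up to 10.3% by the limit of 3 counts and 11.9% by the exact interval, and in 3 of 46.

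Depth differed between the lineages and libraries, and the shares were therefore also taken at 1000 UMIs per nucleus. They were then 4.08% and 5.0% for macrophage-like nuclei, 0.163% and 0.50% for hepatocyte-like, 1.83% and 5.73% for endothelial-like and 0.946% and 0.948% for stellate-like nuclei. The ratio was 3.07 (1.40 to 7.22) for hepatocyte-like and 3.13 (1.58 to 6.64) for endothelial-like nuclei. Of the 4 main lineages, endothelial-like nuclei lost the largest share at this depth, with 105 of 760 and 666 of 1259 left out as too shallow. If each lineage of the HKO-labelled library had cycled at its share in the Flox-labelled library, 126.8 cycling nuclei would have been found where 170 were, which is 1.34 times as many.

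**Figure D2:**
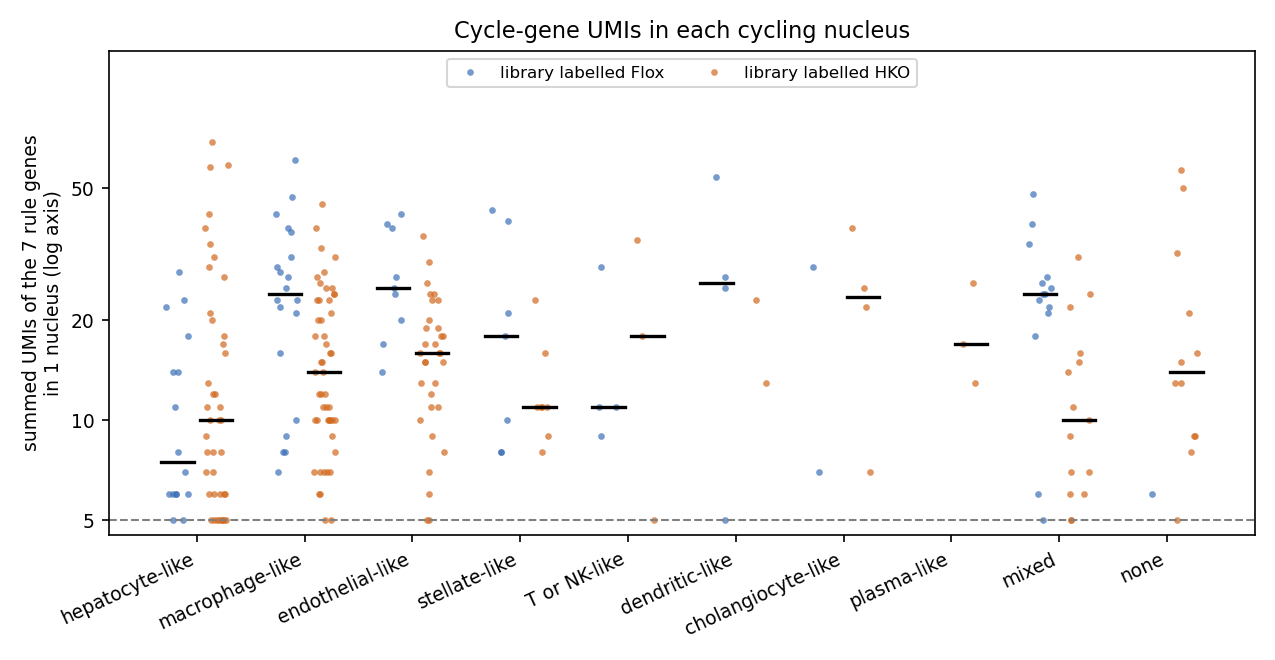
Summed UMIs of the 7 genes in each cycling nucleus (log axis) by lineage and library, with black bars at the median of groups of at least 3 nuclei and a dashed line at the threshold of 5. Hepatocyte-like nuclei lay nearest the threshold with medians of 7.5 and 10, against 24 and 14 in macrophage-like and 25 and 16 in endothelial-like nuclei.

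The summed count of the 7 genes was lower in hepatocyte-like cycling nuclei than in those of the other 3 main lineages, although their depth was greater. The medians were 13.6 and 18.3 UMIs per 10000 in hepatocyte-like nuclei, 76.3 and 66.7 in macrophage-like, 103 and 99.4 in endothelial-like and 46.3 and 38.2 in stellate-like nuclei. Median depths were 7686.5 and 4969 UMIs in hepatocyte-like cycling nuclei, 3371.5 and 2402 in macrophage-like, 2250 and 1504 in endothelial-like and 3636 and 3201.5 in stellate-like ones. Mixed cycling nuclei were deeper still, at 11281.5 and 6211 UMIs, and held 23.8 and 14.9 UMIs of the 7 genes per 10000. Depth relative to other nuclei of the lineage was close to even for hepatocyte-like nuclei, whose other members had 7540 and 5908 UMIs. It was greater for the rest, since other macrophage-like nuclei had 2097 and 1378, other endothelial-like nuclei 1339 and 973, and other stellate-like nuclei 1788.5 and 1437 UMIs. The rule counts UMIs without regard to depth, so that a deeper nucleus passes with a lower share of them. The mitochondrial share of UMIs was 0.702% and 0.539% in cycling nuclei and 0.311% and 0.381% in the others, and its part in the results was not tested.

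Genes that accompanied the cycle were sought against other nuclei of the same library, weighted so that each lineage gave as many UMIs as among the cycling nuclei. Of 7793 genes with at least 20 UMIs over both sides in the Flox-labelled library, 348 (4.47%) lay at least 2-fold higher in cycling nuclei and 134 (1.72%) at least 2-fold lower, with a pseudocount of 1 CPM. Of 9287 in the HKO-labelled library, 455 (4.9%) lay at least 2-fold higher and 79 (0.851%) lower. The median log2 difference over all genes measured was 0.04 in either library. Among 7698 genes measured in both, 252 lay higher in both, which is 75.9% of those higher in Flox and 78.3% of those higher in HKO. At least 2-fold lower in both lay 10, or 8% and 17.5%. A gene that is nearly absent from other nuclei can reach 20 UMIs only by being high in cycling ones, so counts over the cycle lists are a description. The nuclei were chosen by mitotic genes, so the direction of other cycle genes is not independent of that choice.

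By median, genes of the spindle and of cytokinesis lay furthest from other nuclei among the cycle lists. Of 26 in that list, 24 were measured in the Flox-labelled library and 25 in the HKO-labelled library, and all of those lay at least 2-fold higher (background 4.47% and 4.9%), with median log2 differences of 5.30 and 5.0. *Hmmr*, which anchors spindle microtubules, stood at 120.5 CPM against 0.600 CPM in lineage-matched nuclei labelled Flox, and at 108 against 0.105 CPM labelled HKO. *Aspm*, a protein of the spindle poles, stood at 262 against 3.12 CPM and at 205 against 1.56 CPM. *Anln*, which builds the contractile ring, stood at 150 against 2.34 CPM and at 197 against 4.21 CPM. The 3 genes were thus nearly absent outside the cycling nuclei of either library.

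Kinetochore and centromere genes gave the same picture with 1 exception. Of 24, 14 and 20 were measured, and 13 and 20 lay higher, with median log2 differences of 4.0 and 4.15. *Cenpe*, the motor of the kinetochore, stood at 296 against 2.80 CPM and at 268 against 4.94 CPM. *Hjurp*, the chaperone of the centromeric histone, was present throughout the liver, at 958 against 551 CPM and at 1084 against 518 CPM, log2 differences of 0.80 and 1.06. Of 25 genes of G2/M control, 11 and 19 were measured and 10 and 17 lay higher. *Ccna2*, cyclin A, stood at 78.2 against 1.45 CPM and at 62.9 against 1.05 CPM, and *Bub1*, a kinase of the spindle checkpoint, at 55.0 against 0.121 CPM and at 62.9 against 0.281 CPM. *Ccna2* overlaps *Exosc9* on the other strand.

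S-phase genes were higher as well, by less. Of 31, 18 were measured in the Flox-labelled library and 15 lay at least 2-fold higher, and 27 were measured in the HKO-labelled library with 26 higher, at median log2 differences of 2.35 and 2.98. *Pola1*, the catalytic subunit of the polymerase that starts new strands, stood at 247 against 46.9 CPM and at 341 against 57.4 CPM. *Rrm2*, the regulated subunit of ribonucleotide reductase, stood at 48.6 against 1.43 CPM and at 108 against 2.82 CPM. *Pcna*, the sliding clamp, stood at 55.0 against 13.2 CPM and at 80.3 against 13.7 CPM. Of 16 DNA repair genes, 12 and 15 were measured and 10 and 12 lay higher, among them *Brca1* at 112 against 6.84 CPM and at 127 against 7.64 CPM. Of 15 condensin and cohesin genes, 13 were measured in each library and 9 in each lay higher. *Esco2*, which locks sister chromatids together in S phase, stood at 184 against 2.58 CPM and at 294 against 2.27 CPM. *Ncapg*, a condensin subunit, stood at 127 against 0.958 CPM and at 218 against 2.07 CPM.

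Of 21 genes for replication histones and chromatin, 11 were measured in each library and 10 and 9 lay higher. *Hmgb2*, a chromatin protein of dividing cells, stood at 398 against 59.0 CPM and at 346 against 58.8 CPM. The 10 genes not measured in either library were all replication-dependent histone genes, whose RNA ends without a poly(A) tail. Other genes of that class in the list were measured, and the cause was not tested.

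The entry into the cycle looked different from its later steps. Of 17 genes for G1 cyclins and E2F factors, 11 and 14 were measured and 3 and 7 lay higher, at median log2 differences of 0.45 and 0.92. *E2f7* and *E2f8*, the repressor E2F factors that shape the ploidy of hepatocytes, were among them, *E2f7* at 90.9 against 5.51 CPM and at 116 against 4.66 CPM, *E2f8* at 86.7 against 10.5 CPM and at 132 against 12.0 CPM. *Ccnd1*, cyclin D1, stood at 48.6 against 60.4 CPM and at 103 against 78.6 CPM, and *Ccnd2* at 35.9 against 70.5 CPM and at 42.8 against 60.1 CPM. Both D cyclins therefore lay within 2-fold of other nuclei in both libraries. Of 15 cell cycle inhibitors, 11 were measured in each library, with 3 higher and 1 lower in Flox and 2 higher and 0 lower in HKO. *Cdkn2c*, which blocks the kinases CDK4 and CDK6, stood at 48.6 against 3.63 CPM and at 33.4 against 3.55 CPM, and *Rbl1*, the p107 partner of E2F, at 59.2 against 11.3 CPM and at 80.3 against 13.7 CPM. *Cdkn1a*, the p21 inhibitor, stood at 42.3 against 19.1 CPM and at 56.2 against 36.4 CPM. *Btg1*, which restrains growth, was the 1 lower gene, at 57.1 against 134 CPM, and stood at 72.2 against 101 CPM in the HKO-labelled library.

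**Figure D3:**
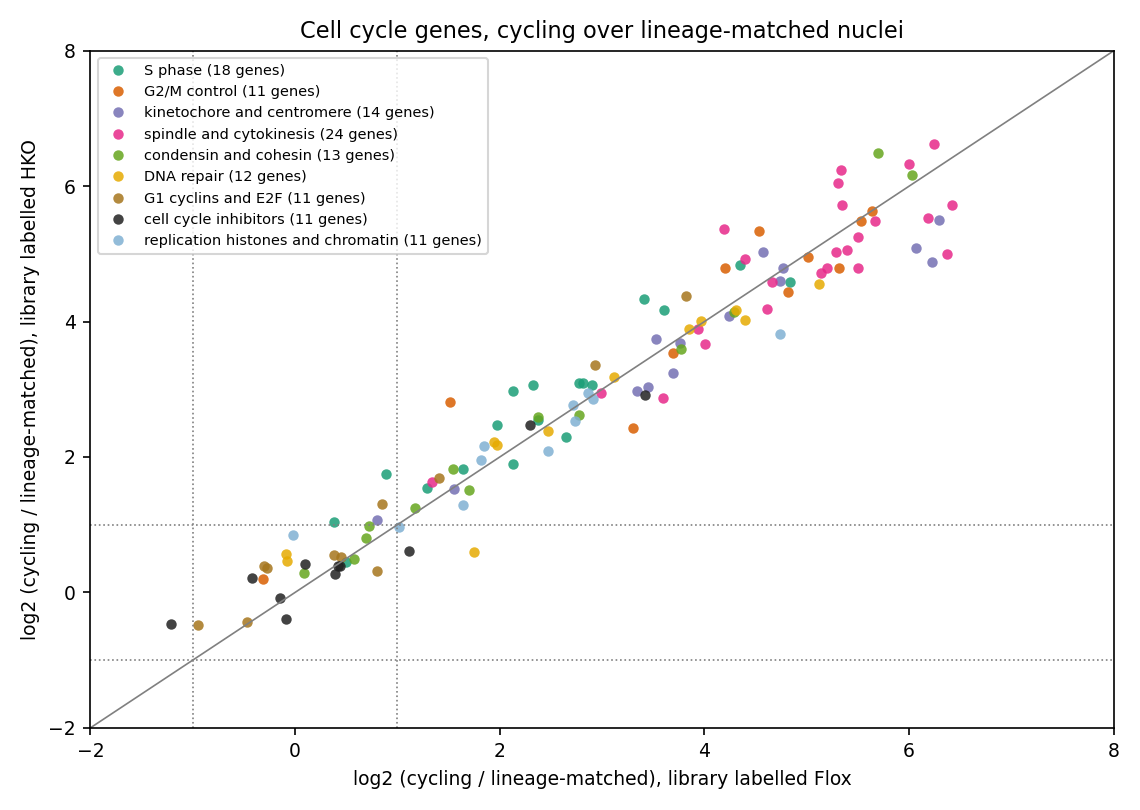
Log2 difference between cycling and lineage-matched nuclei for each cycle gene measured in both libraries, Flox on the horizontal and HKO on the vertical axis, coloured by list. Spindle genes lie towards the upper right (list medians of 5.30 and 5.0), S-phase genes lower (2.35 and 2.98) and cell cycle inhibitors around 0 and above (0.39 in each).

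Lists of cell states gave few differences across all cycling nuclei. Of 6 genes of disease-associated hepatocytes, 4 and 6 were measured, with 0 higher in either library and 0 and 2 (*Sox4* and *Anxa2*) lower. Of 12 zonation genes, 10 and 12 were measured, with 0 higher and 2 (*Glul* and *Slc1a2*) and 0 lower. Of 14 Kupffer and lipid-associated macrophage genes, 12 and 10 were measured, with 0 higher and 2 (*Gpnmb* and *Mmp12*) and 1 (*Gpnmb*) lower, beside 1.72% and 0.851% of all genes. *Themis* had log2 differences of -1.17 and -0.25.

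Outside the lists, 20 genes were named by a fixed ranking on the bound of their interval nearest 1. *Neil3*, a glycosylase that repairs oxidised bases and crosslinks in replicating DNA, led it. It had a UMI in 43 of 77 and 94 of 170 cycling nuclei and stood at 178 against 0.262 CPM and at 233 against 1.01 CPM. *Depdc1a* stood at 52.9 against 0.121 CPM and at 45.5 against 0.0709 CPM, and *Ankle1*, a nuclease that cuts chromatin bridges, at 63.4 against 0.379 CPM and at 91.0 against 0.450 CPM. *Cdca2*, which steers a phosphatase to chromatin, stood at 114 against 0.883 CPM and at 122 against 0.604 CPM. *Lockd*, a noncoding RNA next to *Cdkn1b*, stood at 112 against 1.48 CPM and at 146 against 1.80 CPM. The other 15 were *Prr11*, *Shcbp1*, *Dlgap5*, *Troap*, *Knstrn*, *Stil*, *Cdca3*, *Espl1*, *Pclaf*, *Cip2a*, *Cenph*, *Rad54b*, *Arhgef39*, *Gen1* and *Zwilch*, with log2 differences from 3.71 to 6.39 in Flox and from 3.60 to 5.52 in HKO. *Espl1* is the separase that cuts cohesin, *Stil* builds centrioles and *Gen1* resolves DNA junctions. Part of *Rad54b* is shared with *Fsbp* on the same strand, and *Pclaf* overlaps *Trip4* on the other.

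The upstream sequences of the first 3 are shown since they differ in the motifs that the 7 selecting genes have in common. They are RefSeq sequences of build GRCm38.p6 that end at the base before the start, 250 bases each, with TTTGAA and CCAAT in capitals on the strand given or reverse-complemented as TTCAAA and ATTGG.
Depdc1a (chr3:159495183-159495432, plus strand): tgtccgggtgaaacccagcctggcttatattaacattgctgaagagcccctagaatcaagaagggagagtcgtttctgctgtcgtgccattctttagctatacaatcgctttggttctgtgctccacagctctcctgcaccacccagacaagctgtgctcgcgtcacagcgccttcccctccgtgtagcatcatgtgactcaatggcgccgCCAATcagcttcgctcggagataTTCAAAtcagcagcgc
Ankle1 (chr8:71405762-71406011, plus strand): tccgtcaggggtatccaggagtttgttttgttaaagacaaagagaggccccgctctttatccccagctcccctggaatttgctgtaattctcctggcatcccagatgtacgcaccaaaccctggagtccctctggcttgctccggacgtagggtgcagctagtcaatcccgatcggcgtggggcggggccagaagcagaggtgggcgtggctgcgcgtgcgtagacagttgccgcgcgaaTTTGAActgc
Neil3 (chr8:53639066-53639315, minus strand): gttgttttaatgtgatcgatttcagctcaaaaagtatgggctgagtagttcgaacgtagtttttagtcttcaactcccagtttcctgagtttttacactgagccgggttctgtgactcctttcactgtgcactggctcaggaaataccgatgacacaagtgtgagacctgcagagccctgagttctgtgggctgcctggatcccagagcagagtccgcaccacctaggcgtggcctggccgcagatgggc
*Depdc1a* held TTTGAA on the other strand 16 bases before its start and CCAAT 39 bases before it. *Ankle1* held TTTGAA 10 bases before its start, and *Neil3* held neither set of letters. RefSeq promoters were matched for 15 of the 20 genes, of which 6 (40%) held TTTGAA, 10 (66.7%) CCAAT and 5 (33.3%) both, with shares over all promoters given above.

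The ranking for lower genes named 8. *Slfn5*, an interferon-induced gene, stood at 48.6 against 115 CPM and at 60.2 against 130 CPM. *Igfbp3*, a carrier of insulin-like growth factors, stood at 16.9 against 72.2 CPM and at 14.7 against 37.0 CPM. *Snhg11*, a noncoding RNA, stood at 23.3 against 65.2 CPM and at 60.2 against 117 CPM. *Lilr4b* and *Lilrb4a*, inhibitory receptors of myeloid cells that are close copies of each other and may share reads, had log2 differences of -0.95 and -1.29 and of -0.73 and -0.82. *Cyp2c50* had -1.04 and -1.59, *Chpt1* -0.67 and -0.81 and *Mup10* -0.66 and -0.78. *Cyp2c50* and *Mup10* belong to families of close copies, and their reads cannot be split with certainty.

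Within hepatocyte-like nuclei, 16 and 41 cycling nuclei were set against 6138 and 4620 others. Of 2310 and 4955 genes measured, 4.63% and 6.18% lay at least 2-fold higher and 2.6% and 1.01% lower. Of 31 S-phase genes, 6 and 15 were measured and 4 and 13 lay higher. Spindle genes were too few in UMIs in the Flox-labelled library, with 0 of 26 measured, and 10 of 10 measured lay higher in the HKO-labelled library. The summed spindle list stood at 715 against 80.4 CPM and at 1698 against 98.1 CPM. The 12 hepatocyte markers stood at 8535 against 8771 CPM and at 6589 against 8654 CPM, so that they were close to the level of other hepatocyte-like nuclei in the Flox-labelled library and below it in the HKO-labelled library. These 12 assigned the nuclei and include the zonation genes *Cyp2e1*, *Hal* and *Pck1*, and the effect of that choice on the levels was not tested. The endothelial list stood at 107 against 31.3 CPM and at 186 against 42.5 CPM and the macrophage list at 320 against 307 CPM and at 421 against 348 CPM, and their part was not tested.

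Pericentral genes were lower in cycling hepatocyte-like nuclei of both libraries. These genes are used around the central vein, where Wnt signals are strongest, and the 6 in the list summed to 715 CPM in cycling against 2036 CPM in other nuclei labelled Flox, a ratio of 0.351 (0.281 to 0.433). In the HKO-labelled library they summed to 940 against 1716 CPM, a ratio of 0.548 (0.484 to 0.618). *Glul*, glutamine synthetase of the innermost pericentral hepatocytes, stood at 90.4 against 361 CPM and at 165 against 444 CPM. It had a UMI in 4 of 16 and 9 of 41 cycling nuclei. *Cyp2e1*, which oxidises ethanol and drugs, stood at 427 against 1177 CPM and at 477 against 789 CPM. *Slc1a2*, a glutamate transporter, stood at 148 against 373 CPM, from 2 nuclei of which 1 held 17 of 18 UMIs, and at 218 against 387 CPM. Without the nucleus richest in the list the pericentral ratios were 0.209 and 0.464, and without doublets 0.343 and 0.340.

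Periportal genes went apart between the libraries. The 6 in the list summed to 4041.5 against 3366 CPM in the Flox-labelled library, a ratio of 1.2 (1.10 to 1.31), and to 2842 against 4009 CPM in the HKO-labelled library, a ratio of 0.709 (0.661 to 0.760). Without the nucleus richest in these genes the Flox ratio was 1.10 (0.995 to 1.21), an interval that includes 1. *Hal*, which breaks down histidine, stood at 279 against 120 CPM and at 42.1 against 73.8 CPM, and *Cyp2f2* at 263 against 145 CPM and at 49.1 against 90.4 CPM. *Pck1*, a rate-setting enzyme of gluconeogenesis, stood at 2686 against 2630 CPM and at 2210 against 3239 CPM. *Pck1* held 327 of 492 and 630 of 810 UMIs of the list, and thus set most of its sum. Among hepatocyte-like nuclei with more periportal than pericentral UMIs, 13 of 3755 (0.346%, 0.184 to 0.591) and 30 of 3340 (0.898%, 0.607 to 1.28) were cycling. Among those with more pericentral UMIs it was 3 of 2305 (0.130%, 0.0268 to 0.380) and 8 of 1219 (0.656%, 0.284 to 1.29), with intervals that overlap those of the periportal side.

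*Cdkn1a* stood at 65.7 CPM in cycling against 11.3 CPM in other hepatocyte-like nuclei labelled Flox, from 8 UMIs in 6 of 16 nuclei, and at 38.6 against 37.4 CPM in those labelled HKO. *Nrg1*, a ligand of ErbB receptors, stood at 73.9 against 14.1 CPM and at 105 against 77.2 CPM. *Themis* itself stood at 73.9 against 159 CPM in the Flox-labelled library, from 9 UMIs in 3 nuclei, a ratio of 0.464 (0.212 to 0.881), and at 228 against 252 CPM in the HKO-labelled library, a ratio of 0.907 (0.699 to 1.16). *Ccnd1* stood at 32.9 against 18.9 CPM and at 102 against 72.7 CPM, within 2-fold in both. In the Flox-labelled library, none of these 4 genes had more than 9 UMIs in cycling hepatocyte-like nuclei.

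**Figure D4:**
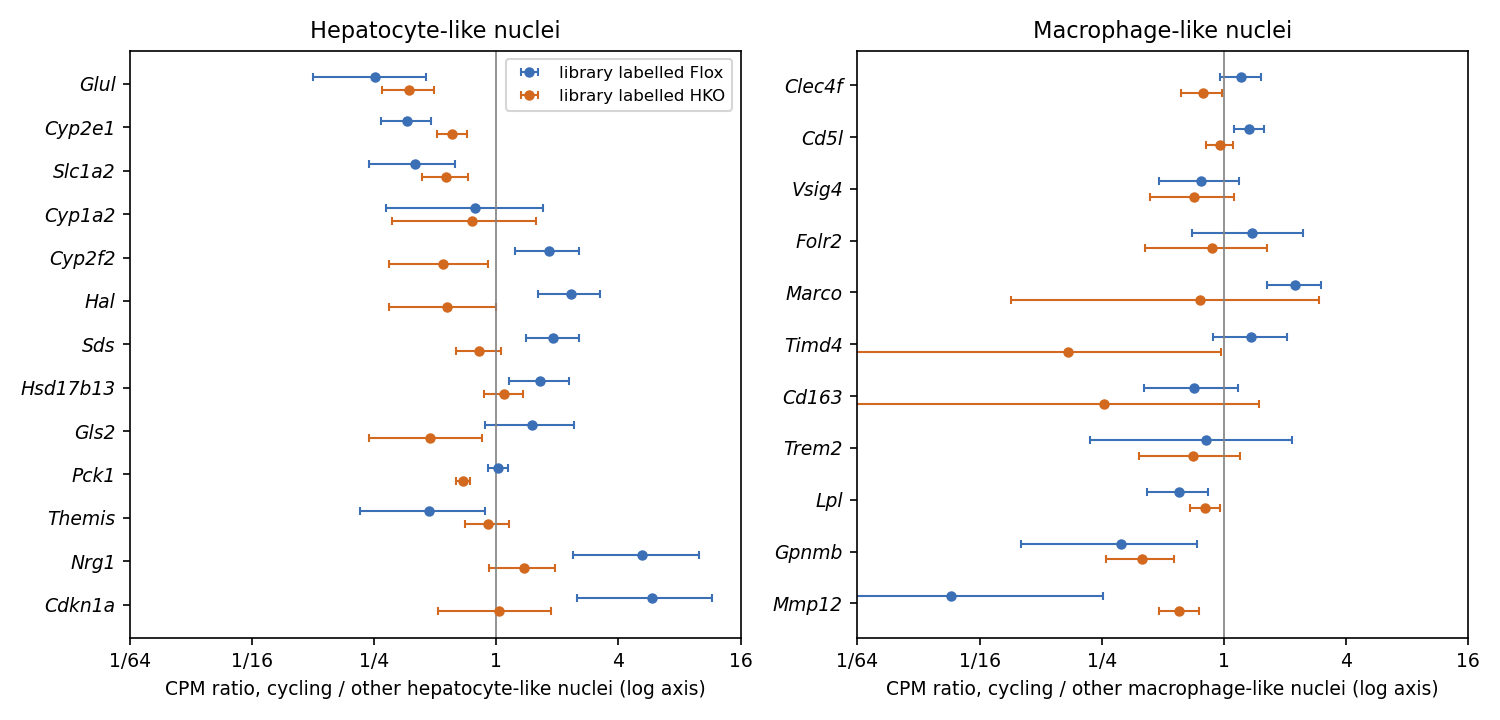
Ratio of CPM in cycling over other nuclei of the same lineage (log axis) for hepatocyte genes in hepatocyte-like nuclei and macrophage genes in macrophage-like nuclei, by library, with 95% conditional binomial intervals (those that reach past the axis are cut off). *Glul* lay at 0.25 and 0.371, while *Hal* lay at 2.33 and 0.570. *Marco* lay at 2.25 and 0.766, the latter from 2 UMIs in cycling nuclei.

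Within macrophage-like nuclei, 20 and 50 cycling nuclei were set against 534 and 1286 others. Of 1446 and 2564 genes measured, 8.58% and 7.76% lay at least 2-fold higher and 5.05% and 3.24% lower. Of 26 spindle genes, 9 and 13 were measured and all of those lay higher, and of 24 kinetochore genes, 5 and 9 were measured with the same outcome. *Ms4a7* stood at 162 against 362 CPM and at 114 against 340 CPM, ratios of 0.448 (0.222 to 0.810) and 0.336 (0.183 to 0.568). It is among the markers that assigned these nuclei, at a minimum of 3 marker UMIs, and the other nuclei were shallower. The effect of this on its level was not tested.

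Genes of lipid-associated macrophages, the *Trem2*-dependent state that clears lipid in MASH, were lower in cycling macrophage-like nuclei. The 7 in the list summed to 708 against 1704 CPM in the Flox-labelled library, a ratio of 0.415 (0.305 to 0.553), and to 2259 against 3491 CPM in the HKO-labelled library, a ratio of 0.647 (0.572 to 0.730). *Gpnmb*, a glycoprotein of this state, stood at 73.7 against 236 CPM and at 237 against 601 CPM. *Mmp12*, an elastase, stood at 14.7 against 325 CPM, from 1 UMI, and at 661 against 1093 CPM. A single nucleus held 50 of its 81 UMIs in the HKO-labelled library. *Trem2* itself stood at 59.0 against 72.0 CPM and at 114 against 162 CPM, with intervals of the ratio that include 1. *Trem2*, *Gpnmb* and *Mmp12* are among the markers that assigned these nuclei, and the effect of that choice on the ratios was not tested.

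Kupffer genes went apart between the libraries. The 7 in the list summed to 5249 against 4107 CPM in the Flox-labelled library, a ratio of 1.28 (1.14 to 1.42), and to 2398 against 2782 CPM in the HKO-labelled library, a ratio of 0.862 (0.764 to 0.969). Without marked nuclei the HKO ratio was 0.896 (0.790 to 1.01), an interval that includes 1. *Marco*, a scavenger receptor, stood at 737 against 327 CPM in the Flox-labelled library, from 50 UMIs in 10 of 20 nuclei. In the HKO-labelled library it stood at 16.3 against 21.3 CPM, from 2 UMIs. *Clec4f* stood at 1224 against 1006 CPM and at 644 against 819 CPM. *Timd4*, a receptor of long-lived Kupffer cells, stood at 383 against 280 CPM and at 8.16 against 47.8 CPM. In cycling macrophage-like nuclei labelled HKO, 3 UMIs would give 24.5 CPM. The values of *Marco* and *Timd4* there lay below this, and no direction is read from them. *Clec4f*, *Vsig4*, *Cd5l*, *Timd4* and *Marco* of this list also assigned the nuclei, and the effect of that choice on the ratios was not tested. Macrophage-like nuclei with more Kupffer than lipid-associated UMIs cycled in 19 of 393 (4.83%, 2.94 to 7.45) and 29 of 643 (4.51%, 3.04 to 6.41). Those with more lipid-associated UMIs cycled in 1 of 110 (0.909%, 0.0230 to 4.96) and 19 of 559 (3.40%, 2.06 to 5.26). Cycling was thus measured on both sides of this divide in the HKO-labelled library, and 1 nucleus stood for the lipid-associated side in the Flox-labelled library.

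Within endothelial-like nuclei, 9 and 32 cycling nuclei were set against 751 and 1227 others. Of 293 and 1014 genes measured, 13.7% and 9.96% lay at least 2-fold higher and 7.85% and 4.24% lower. All 5 and 10 spindle genes measured lay higher. The identity gene *Ptprb* was lower, at 2361 against 4777 CPM and at 1647 against 3454 CPM, ratios of 0.494 (0.374 to 0.641) and 0.477 (0.385 to 0.585). *Stab2*, the hyaluronan receptor of sinusoids, stood at 704 against 1576 CPM and at 1297 against 1420 CPM. Of 15 cell cycle inhibitors, 0 and 2 were measured in endothelial-like nuclei, and 0 lay higher in either library. *Cdkn1a* was not among those measured, since it fell short of the minimum UMI count in both libraries. It stood at 290 against 25.3 CPM from 7 UMIs in 6 nuclei and at 158 against 18.4 CPM from 9 UMIs in 8 nuclei. The ratios were 11.5 (4.22 to 26.8) and 8.55 (3.51 to 18.9), and *Cdkn1a* was not counted as higher. In macrophage-like nuclei *Cdkn1a* stood at 29.5 against 53.4 CPM and at 32.6 against 35.8 CPM, from 2 and 4 UMIs, and the lineages were not tested against each other.

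The balance of S-phase and G2/M genes differed between lineages and libraries. Over all cycling nuclei the 31 S-phase genes summed to 2284 CPM (2149 to 2424) and 3132 CPM (3006 to 3261), with HKO over Flox at 1.37 (1.28 to 1.48). Mixed nuclei, 14 of 77 and 15 of 170, count in these sums by their depth, which reached 32728 and 62600 UMIs. Their part in the ratio was not tested, and values within lineages follow below. The 25 G2/M genes summed to 1152 CPM (1058 to 1253) and 1232 CPM (1154 to 1314), with HKO over Flox at 1.07 (0.961 to 1.19), and at 1000 UMIs per nucleus their order turned, at 1934 and 1770 CPM. In other nuclei the same lists summed to 495 and 451 CPM and to 160 and 123 CPM. More S-phase than G2/M UMIs were held by 45 of 77 and 115 of 170 cycling nuclei, and the reverse by 24 and 47. The lists differ in the abundance of their genes, so that their ratio orders groups and does not count phases.

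**Figure D5:**
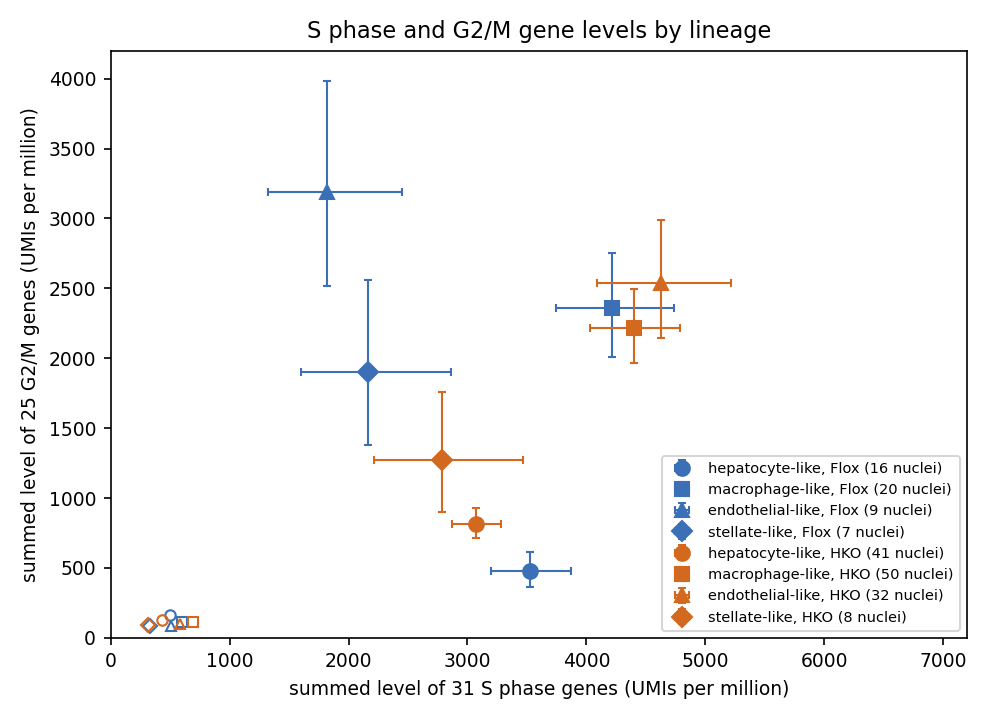
Summed CPM of the S-phase list (horizontal) and of the G2/M list (vertical) by lineage and library, with filled points and 95% Poisson intervals for cycling nuclei and open points for the other nuclei of each lineage. Cycling hepatocyte-like nuclei lay low on the G2/M axis (476 and 817 CPM), and cycling endothelial-like nuclei labelled Flox lay highest on it (3190 CPM).

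Hepatocyte-like cycling nuclei held more S-phase than G2/M UMIs. The S-phase list summed to 3524 CPM (3198 to 3874) and 3070 CPM (2870 to 3280) and the G2/M list to 476 CPM (362 to 616) and 817 CPM (716 to 929), so that UMIs of S over G2/M were 7.40 and 3.76. Of the nuclei, 15 of 16 and 31 of 41 held more S-phase UMIs. Other hepatocyte-like nuclei leaned the same way, at 497 and 429 CPM of the S-phase list and 167 and 127 CPM of the G2/M list. Relative to them, the S-phase list was 7.09 and 7.16 times as high in cycling nuclei and the G2/M list 2.86 and 6.43 times. Both lists thus rose by a similar factor in the HKO-labelled library. In macrophage-like cycling nuclei the ratio of UMIs was 1.79 and 1.98, and in stellate-like ones 1.14 and 2.19. The order of the libraries in these lineages was not stable, with 2.54 and 2.24 in macrophage-like nuclei at 1000 UMIs, and in stellate-like nuclei 1.33 and 1.05 without marked nuclei and 0.85 and 4.0 at 1000 UMIs. Endothelial-like cycling nuclei labelled Flox held more G2/M than S-phase UMIs (77 against 44, in 7 of 9 nuclei), while those labelled HKO held more S-phase UMIs (264 against 145, in 21 of 32 nuclei). Between the libraries, the S-phase level in endothelial-like cycling nuclei was 2.54 times as high (1.84 to 3.58) in the HKO-labelled library, while in hepatocyte-like ones it was 0.871 times (0.775 to 0.98) and in macrophage-like ones 1.04 times (0.902 to 1.21). The hepatocyte-like value was 0.939 (0.830 to 1.06) without marked nuclei and 1.02 (0.869 to 1.2) with at least 10 UMIs of the 7 genes, so that its direction did not hold. The G2/M level in hepatocyte-like cycling nuclei was 1.72 times as high (1.28 to 2.33), and 1.0 times (0.497 to 2.14) at 1000 UMIs. At 1000 UMIs per nucleus the ratio of S over G2/M was 5 and 4.3 in hepatocyte-like nuclei and 0.704 and 1.86 in endothelial-like ones, so that the Flox hepatocyte-like value was lower and the order of the libraries within both lineages stayed.

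Between the libraries, 8835 genes were measured among all cycling nuclei, of which 361 (4.09%) lay at least 2-fold higher in the HKO-labelled library and 337 (3.81%) lower, with a median log2 difference of -0.02. Which side held more genes depended on the setting, with 285 higher and 403 lower without marked nuclei, 312 and 439 with at least 10 UMIs of the 7 genes, 324 and 395 without hepatocyte-like nuclei, and 393 and 297 with TMM scaling. Over all cycling nuclei, mixed ones included, cycle genes were mostly within 2-fold. Of 28 S-phase genes measured, 4 lay higher and 0 lower at a median log2 difference of 0.48, and the highest, *Rrm2*, had 1.14. Of 23 G2/M genes 0 passed, of 24 kinetochore genes 1 lay higher, of 25 spindle genes 1 lay higher, of 14 condensin and cohesin genes 0 passed and of 16 repair genes 0 passed. Of 16 G1 and E2F genes 2 lay higher, with *Ccnd1* at 1.07, and of 12 inhibitors 1 lay lower, *Cdkn2d* at -1.66. *Themis* lay higher, at a log2 difference of 1.56.

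The genes furthest apart between the libraries were not cycle genes. Antibody genes led the higher side: *Igha* stood at 8.46 and 867 CPM, *Igkc* at 4.23 and 433 CPM, *Jchain* at 4.23 and 186 CPM and *Iglc1* at 2.11 and 393 CPM. A single plasma-like nucleus held 560 of 648 UMIs of *Igha*, 216 of 324 of *Igkc*, 100 of 139 of *Jchain* and 291 of 294 of *Iglc1*. *Mzb1* and *Ighv4-1* were likewise from plasma-like nuclei for the most part. *Ebf1*, a factor of B cells and mesenchyme, had 0 and 36 UMIs, of which 17 lay in 1 nucleus. Outside the plasma-like nuclei, *Prlr*, the prolactin receptor, stood at 61.3 and 276 CPM with 15 and 139 UMIs in hepatocyte-like cycling nuclei. In other nuclei, weighted to the lineages of each library's cycling nuclei, *Prlr* stood at 63.8 and 210 CPM. *Mmp12* (12.7 and 152 CPM) and *Tnip3* (4.23 and 52.2 CPM), an inhibitor of NF-kappaB, came mostly from macrophage-like nuclei, with 81 of 114 and 35 of 39 UMIs labelled HKO. In lineage-matched other nuclei *Mmp12* stood at 62.4 and 215 CPM and *Tnip3* at 19.6 and 23.4 CPM.

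On the lower side, major urinary protein genes and *Serpina1e*, which are secreted products of hepatocytes, took 5 of 10 places. *Mup7* stood at 118 CPM and 0 UMIs, where 3 UMIs would give 4.01 CPM, so that it was at least 29.5-fold lower. *Mup11* stood at 241 and 5.35 CPM, *Mup9* at 211 and 13.4 CPM, *Mup17* at 65.5 and 1.34 CPM and *Serpina1e* at 241 and 16.1 CPM. In Flox, hepatocyte-like nuclei held 17 of 56 UMIs of *Mup7*, 24 of 114 of *Mup11* and 36 of 100 of *Mup9*. They held 6 of 31 UMIs of *Mup17* and 41 of 114 of *Serpina1e*. The richest nucleus was of mixed lineage for each of these genes, with 9, 38, 30, 14 and 27 UMIs. In lineage-matched other nuclei *Serpina1e* stood at 234 and 7.22 CPM, *Mup7* at 153 and 1.62 CPM and *Mup11* at 291 and 5.72 CPM. *Mup9* stood there at 450 and 28.9 CPM and *Mup17* at 148 and 6.68 CPM. The major urinary protein genes are close copies and their reads cannot be split with certainty. *Cxcl1*, which attracts neutrophils, stood at 531 and 32.1 CPM, *Marco* at 121 and 4.01 CPM and *Gm50136* at 262 and 18.7 CPM. In lineage-matched other nuclei *Cxcl1* stood at 365 and 79.1 CPM, *Marco* at 60.2 and 4.25 CPM and *Gm50136* at 216 and 41.1 CPM. *Slpi*, an inhibitor of proteases, came from 1 nucleus of mixed lineage with all 179 UMIs, and *Thbs1* from 1 such nucleus with 47 of 48, without which its log2 difference turned from -4.01 to 1.01.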

How the data were processed

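Nuclear RNA was measured by 10x 3′ snRNA-seq in 2 libraries of sorted liver nuclei, 1 per genotype. The authors deposited raw UMI counts per gene and barcode, made with Cell Ranger 8.0.1 on GRCm38 (mm10) with introns excluded, for 32285 genes. The study's methods filter nuclei and remove doublets after these matrices, and the files still held 3 and 27 barcodes with fewer than 300 genes, which were left out. The files totalled 58171337 and 40475938 UMIs, of which cycling nuclei held 472936 and 747547. The members, lineage markers and gene lists were chosen with earlier results of these data known.

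A lineage needed at least 3 UMIs from 2 of its markers and at least 10 marker UMIs per 10000 (30 for hepatocytes). A nucleus that passed for hepatocytes and another lineage, or whose next lineage reached 0.5 of the first, was called mixed. Scrublet (scanpy 1.11.5, 30 components) marked the highest-scoring nuclei, at 0.8% per 1000 barcodes, and marked nuclei stayed in the main values. Summed UMIs gave CPM. With 1 library per group there was no test, and a gene counted as higher or lower when past 2-fold with a pseudocount of 1 CPM and at least 20 UMIs. Intervals were Poisson for CPM, conditional binomial for ratios and Clopper-Pearson for shares. In the lineage-matched comparison, other nuclei were weighted to the lineages' UMIs among cycling nuclei. Besides the 7 selecting genes and the lists, the text names the 20 highest and 8 lowest genes of that comparison, and the 10 highest and 10 lowest between libraries, by the interval bound nearest 1. Gene positions came from GENCODE by gene identifier. The calculation was tested on simulated counts, and Python 3.11.15, numpy 2.4.6, scipy 1.17.1 and pandas 2.3.3 were used. Alternatives changed the threshold, minimum counts, pseudocount, depth, doublets, lineage calls and scaling by TMM in edgeR.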

Additional observations from a re-analysis of the deposited data

Results flagged for a closer look

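Over all cycling nuclei of a lineage, or of every lineage for *Cyp2f2*, each pair pointed in opposite directions with counting intervals away from 1. For 3 of the pairs that did not hold for every alternative, as given beside them, and none of these differences between libraries or lineages was tested. The S-phase level in cycling nuclei, HKO over Flox, was 0.871 (0.775 to 0.98) in hepatocyte-like and 2.54 (1.84 to 3.58) in endothelial-like nuclei. The hepatocyte-like interval reached past 1 without doublets, at 0.939 (0.830 to 1.06), and the value turned to 1.02 (0.869 to 1.2) with at least 10 UMIs of the 7 genes. Kupffer genes in cycling over other macrophage-like nuclei stood at 1.28 (1.14 to 1.42) in the library labelled Flox and at 0.862 (0.764 to 0.969) in that labelled HKO, where the value without doublets was 0.896 (0.790 to 1.01). Periportal genes in cycling over other hepatocyte-like nuclei stood at 1.2 (1.10 to 1.31) and 0.709 (0.661 to 0.760), and the Flox value without its richest nucleus was 1.10 (0.995 to 1.21). Among single genes of the lists, *Cyp2f2*, a periportal cytochrome P450, stood at 1.45 and 0.646 in cycling over lineage-matched nuclei.

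Barcodes with fewer than 300 genes, which entered no comparison, held 4 UMIs of the 7 selecting genes among 27 barcodes of the library labelled HKO and 2 among 3 barcodes of that labelled Flox.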

How the results depend on the processing

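Of 116 values recomputed for the main comparisons, 87 stayed within the counting interval or 1.5 times the count, and 29 did not. The ratio of the cycling share, HKO over Flox, ranged from 1.63 to 2.06, that of hepatocyte-like nuclei from 2.59 to 4.15, that of endothelial-like nuclei from 1.74 to 3.13 and that of macrophage-like nuclei from 0.948 to 1.23, on both sides of 1. The stellate-like ratio was 0.787, and 1.0 at 1000 UMIs. Between the libraries the counts of higher and lower genes also changed order, from 361 and 337 to 285 and 403 without doublets. The hepatocyte-like share of cycling nuclei became 32.5% and 32.4% when lineages came from the best fitting profile, which also places mixed nuclei, and 14.6% at 1000 UMIs in the library labelled HKO. Genes lower than in lineage-matched nuclei labelled HKO numbered 177 without doublets and 141 with at least 10 UMIs of the 7 genes, and the cause was not tested. With at least 50 UMIs required, 128 genes lay higher and 27 lower in Flox, 260 and 14 in HKO, and 119 and 119 between the libraries. With no minimum above 1 UMI these counts were 1421 and 1276, 1203 and 919, and 2450 and 2043. With a pseudocount of 10 CPM, 66 and 16 lay lower than in matched nuclei, and 152 and 161 were higher and lower between the libraries. Levels of S-phase genes became 2744 and 3936 CPM without doublets and 3079 and 4030 CPM at 1000 UMIs, and those of G2/M genes 1313 and 1598 CPM and 1934 and 1770 CPM. For single genes and gene sums, 1612 of the recomputed values stayed, 589 moved and 1 turned: the S-phase level of hepatocyte-like nuclei, HKO over Flox, from 0.871 to 1.02 with at least 10 UMIs of the 7 genes. A sum counted as turned only where its main interval left out 1, and a gene against matched nuclei only where it was past 2-fold. Other changes of side were counted as moved or stayed. The stellate-like S-phase level, HKO over Flox, went from 1.29 to 0.659 without doublets and was counted as moved.

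The alternatives for Kupffer, lipid-associated, pericentral and periportal sums and for S-phase and G2/M levels within a lineage were chosen after seeing the data. Across them the pericentral ratios ranged from 0.194 to 0.351 in Flox and from 0.340 to 0.548 in HKO, and the lipid-associated ratios from 0.363 to 0.421 and from 0.502 to 0.680. The periportal ratios ranged from 1.10 to 1.48 and from 0.657 to 0.770, and the Kupffer ratios from 1.18 to 1.28 and from 0.836 to 0.896. No paired analysis was possible because each genotype had 1 library. With 16 cycling hepatocyte-like and 9 endothelial-like nuclei labelled Flox, most single genes of these lineages fell short of 20 UMIs.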
